A study of Mus musculus with 68 samples.

Results

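The genes described here are 37 genes of mitosis and cytokinesis, named in a list of mitotic kinases, cyclins, spindle, kinetochore and cytokinesis genes and matched by symbol. All 37 were found among the 24059 gene symbols of the deposited count tables. RNA was sequenced from erythroid cells of mouse bone marrow enriched by flow cytometry, in 68 libraries. A stage series of 38 libraries covers 8 populations in order of maturation: BFU-E (3 libraries), CFU-E (5), ERY-I (7), ERY-II (4), ERY-III (4), ERY-IV (4), ERY-V (7) and ERY-VI (4). By their source names BFU-E and CFU-E are early and late erythroid progenitors, ERY-I proerythroblasts, ERY-II basophilic, ERY-III polychromatic and ERY-IV orthochromatic erythroblasts, ERY-V reticulocytes and ERY-VI red blood cells. A knockout series of 30 libraries holds 3 GS-KO and 3 WT libraries in each of 5 gates. These are named BFU-E and CFU-E for the progenitors, then ERY-I-II, then ERY-III-VI, and last ERY-V-VI. The gate labelled ERY-III-VI carries a source name of polychromatic and orthochromatic erythroblasts. The labels give no age, strain, allele, promoter or Cre driver for GS-KO, and GS is read here as glutamine synthetase, the product of Glul.

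Entry into mitosis is driven by the kinase CDK1 bound to cyclin B, with Polo-like and Aurora kinases acting at centrosomes, kinetochores and the central spindle. The spindle checkpoint holds the anaphase-promoting complex and its activator CDC20 inactive until every kinetochore is attached, after which cyclins and securin are degraded, separase opens cohesin and a contractile ring divides the cell. Erythroid precursors go through several divisions while they fill with hemoglobin, then stop dividing, expel the nucleus and become reticulocytes. Promoters of many of these genes carry a CHR element and CCAAT boxes, which are known binding sites of the DREAM and B-MYB complexes and of NF-Y.

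The promoters are shown to set genes that fell late beside genes that kept more of their level. RefSeq promoters (GRCm38.p6) were found for 31 of the 37 genes, and Aurkb, Ccna2, Cdc25c, Incenp, Kif20a and Tpx2 are named only. The 250 bases before the start are printed 5′ to 3′ on the gene's strand. Cdk1, Cdc20 and Mki67 were picked from the 34 genes that kept under 5% of their peak level in ERY-VI. Their motifs do not stand for those of all 34. Ube2c and Nusap1, which kept the largest percent of their own peak there, are printed beside them. Capitals mark the CHR letters TTTGAA and the CCAAT letters, each in either direction. The regions are chr10:69352913-69353162 (minus strand) for Cdk1, chr4:118437344-118437593 (minus strand) for Cdc20, chr7:135716380-135716629 (minus strand) for Mki67, chr2:164769679-164769928 (plus strand) for Ube2c and chr2:119618048-119618297 (plus strand) for Nusap1.
Cdk1: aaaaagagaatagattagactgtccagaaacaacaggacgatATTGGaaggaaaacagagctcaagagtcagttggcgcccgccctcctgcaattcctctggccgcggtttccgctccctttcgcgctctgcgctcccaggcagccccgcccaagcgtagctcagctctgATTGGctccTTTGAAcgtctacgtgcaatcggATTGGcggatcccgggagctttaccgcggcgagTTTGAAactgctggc
Cdc20: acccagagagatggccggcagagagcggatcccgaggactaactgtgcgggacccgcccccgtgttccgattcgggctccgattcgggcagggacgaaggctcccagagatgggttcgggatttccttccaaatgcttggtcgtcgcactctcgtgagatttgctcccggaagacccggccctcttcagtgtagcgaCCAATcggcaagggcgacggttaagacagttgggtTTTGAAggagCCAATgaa
Mki67: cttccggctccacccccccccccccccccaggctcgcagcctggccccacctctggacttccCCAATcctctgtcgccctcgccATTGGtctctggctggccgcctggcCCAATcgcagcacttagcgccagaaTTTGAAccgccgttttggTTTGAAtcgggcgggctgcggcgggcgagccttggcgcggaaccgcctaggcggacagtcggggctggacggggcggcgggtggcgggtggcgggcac
Ube2c: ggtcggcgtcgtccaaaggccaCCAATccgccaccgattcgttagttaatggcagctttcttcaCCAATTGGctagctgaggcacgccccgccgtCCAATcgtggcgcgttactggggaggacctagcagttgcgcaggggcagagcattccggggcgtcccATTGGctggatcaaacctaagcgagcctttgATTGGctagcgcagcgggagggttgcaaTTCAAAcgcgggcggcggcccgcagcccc
Nusap1: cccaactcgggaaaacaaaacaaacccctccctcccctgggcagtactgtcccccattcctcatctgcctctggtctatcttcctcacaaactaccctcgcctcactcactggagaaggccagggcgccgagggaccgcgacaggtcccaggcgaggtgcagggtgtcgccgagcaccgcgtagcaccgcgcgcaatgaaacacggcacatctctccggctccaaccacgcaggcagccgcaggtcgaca
Counting back from base -1 just before the start, Cdk1 held the CHR letters from positions -71 and -15 and Cdc20 from -18, and Ube2c held them from -29. Mki67 held them farther away, from -116 and -98. Ube2c had 6 CCAAT matches, of which the pair from -186 and -183 overlap, while Nusap1 had neither motif in this window. CCAAT letters on either strand were in the promoters of 23 of the 31 genes (74.19%), against 33.85% of all 32851 promoters of the same length. At least 2 matches were in 15 genes (48.39%), against 10.09% of all promoters. The letters TTTGAA were in 11 genes (35.48%, against 15.99%), and the variant TTCGAA in 2 (6.45%, against 1.34%), again on either strand. The 11 genes with CCAAT letters and either CHR form (35.48%, against 6.02%) were Bub1b, Ccnb2, Cdc20, Cdk1, Ect2, Espl1, Kif11, Mki67, Prc1, Top2a and Ube2c. The printed Cdk1, Cdc20 and Mki67 are all among these 11, as is Ube2c. Ccnb1 (3.03%), Cenpe (1.63%), Kif23 (3.76%) and Plk1 (2.42%) also kept under 5% of their peak in ERY-VI and had CCAAT but no CHR letters. The 8 genes without CCAAT letters were Anln, Birc5, Cit, Kif2c, Mad2l1, Ndc80, Nuf2 and Nusap1. All of these except Nusap1 also kept under 5% of their peak in ERY-VI. Of the 8 genes only Kif2c had CHR letters. Anln (4.70%), Cit (3.66%), Nuf2 (1.11%), Birc5 (1.02%), Mad2l1 (0.73%) and Ndc80 (0.44%) had neither motif, like Nusap1. These are matches of letters in a short window and do not show binding.

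Total counts ran from 1630863 to 11472763 per stage library and from 3131142 to 15806844 per knockout library. Levels are given in counts per 1000000 library counts (CPM). The stage libraries fell into 2 sets, 12 with Y-linked transcripts and 26 with Xist. The Y-positive ones were replicates 1 to 3 of both progenitor populations and of ERY-V and ERY-I, and all 30 knockout libraries were of the Y-positive kind. Y-positive triplicates were much closer to each other (chi-square per degree of freedom 1.29 to 8.58) than Xist-positive libraries of 1 population were (7.63 to 98.11). The labels do not say whether replicates are separate mice, and p-values therefore rest on variation among libraries that may be technical. All 8 erythroid markers had counts in every group. Summed neutrophil markers reached 13866 CPM in Y-positive libraries of ERY-I and 3389 CPM in ERY-V replicate 5, while their median was 9.9 CPM in ERY-IV and 26.7 CPM in CFU-E. They were 2074.5 CPM in ERY-II replicate 2 and 1183.1 CPM in ERY-III replicate 2. The other libraries of these populations had at most 27.5 CPM (ERY-II) and 32.1 CPM (ERY-III). The part of these cells in the steps of ERY-II and ERY-III was not tested.

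In the stage series the summed level of the 37 genes was 8209, 8245 and 8225 CPM in BFU-E and 10672, 10646, 10655, 6664 and 8078 CPM in CFU-E, where the Xist-positive replicates 4 and 5 were the lowest. It was 22242 to 34539 CPM in ERY-I, 30348, 33162, 46443 and 16326 CPM in ERY-II and 37833, 46039, 21163 and 20369 CPM in ERY-III. The sum then was 20675, 23627, 5854 and 8256 CPM in ERY-IV, 2013 to 10204 CPM in ERY-V and 1101, 1375, 1323 and 1948 CPM in ERY-VI. The 4 ERY-VI libraries were the lowest of the series, and the ranges of ERY-I, ERY-II and ERY-III overlapped. In sorted bulk samples fewer dividing cells and less RNA of these genes per cell cannot be told apart.

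**Figure D1:**
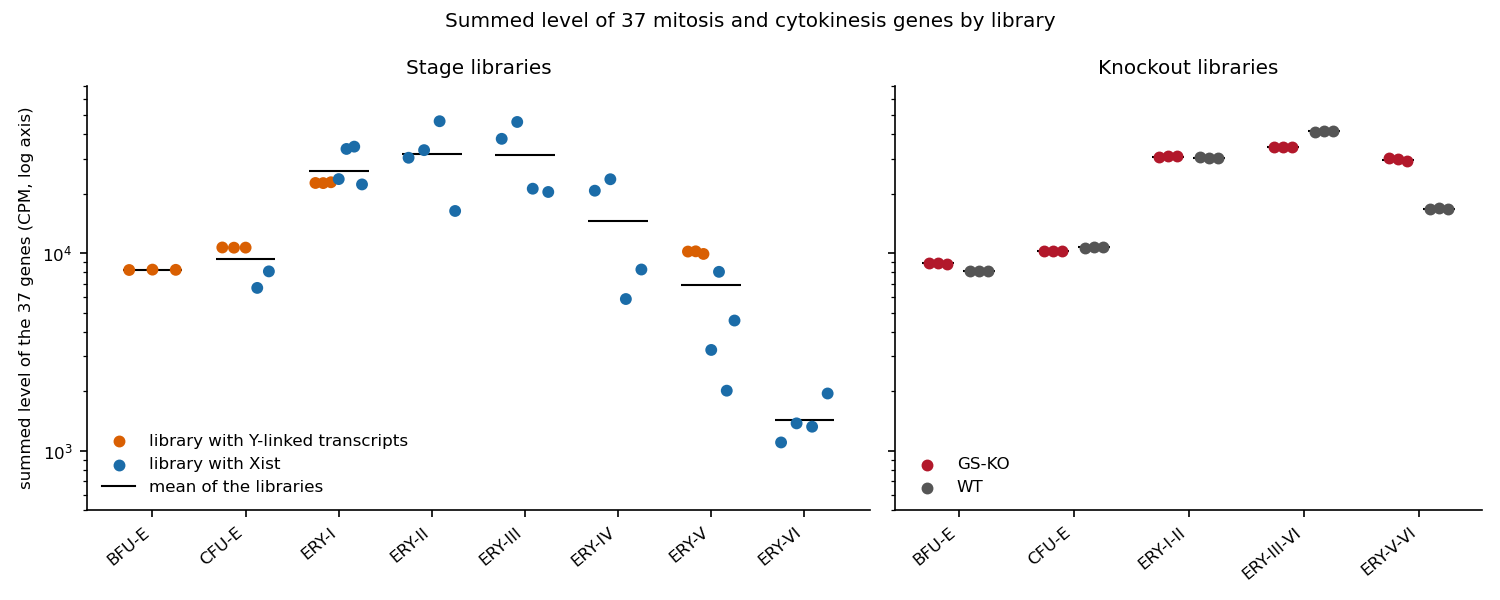
Summed level of the 37 genes in each library, in CPM on a log axis, for the 8 populations of the stage series (left, coloured by library set) and for GS-KO beside WT in the 5 gates (right); each point is a library and each bar the mean. The 4 ERY-VI libraries lie between 1101 and 1948 CPM, and in the ERY-V-VI gate the GS-KO libraries lie between 29317 and 30118 CPM, all above WT.

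Mki67, which coats mitotic chromosomes and is the classic marker of cycling cells, held much of that sum. It made up on average 31.5% of the members' counts in BFU-E. The share was 43.0% in ERY-I libraries, then 48.9% in those of ERY-IV and 23.9% in those of ERY-VI. Per kilobase of annotated exon its level was the highest of the 37 genes in every group except ERY-VI, at 1507 CPM per kilobase in ERY-II. The lowest level per kilobase was that of Cdc25c or Mad2l1 in every group, with Bub1 also at 0 in ERY-VI.

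Measured against library totals, 23 genes had their highest mean level in ERY-III, 6 in ERY-II and 8 in ERY-I. The 8 early ones were Bub1, Bub1b, Mad2l1, Ttk, Cdc20, Espl1, Nuf2 and Kif20a, of which 6 belong to the checkpoint and anaphase group. Globin took 14.2 to 40.1% of counts in ERY-II and ERY-III, and with globin counts left out of the totals only Mad2l1 and Cdc20 still peaked in ERY-I, 10 genes peaked in ERY-II and 25 in ERY-III. From the peak, the median gene kept 36.5% of its level by ERY-IV, then 10.4% by ERY-V and 2.18% by ERY-VI. In ERY-VI 34 of the 37 genes were under 5% of their peak, and the exceptions were Nusap1 (35.2%), Ube2c (29.96%) and Ccnb2 (6.79%). These percents are of library totals, and globin took 57.2 to 71.1% of counts in ERY-VI. On that scale the median log2 fold change from ERY-V to ERY-VI was -2.72 for the listed genes and -2.22 for all genes. The fall in that step was therefore not limited to the listed genes.

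**Figure D2:**
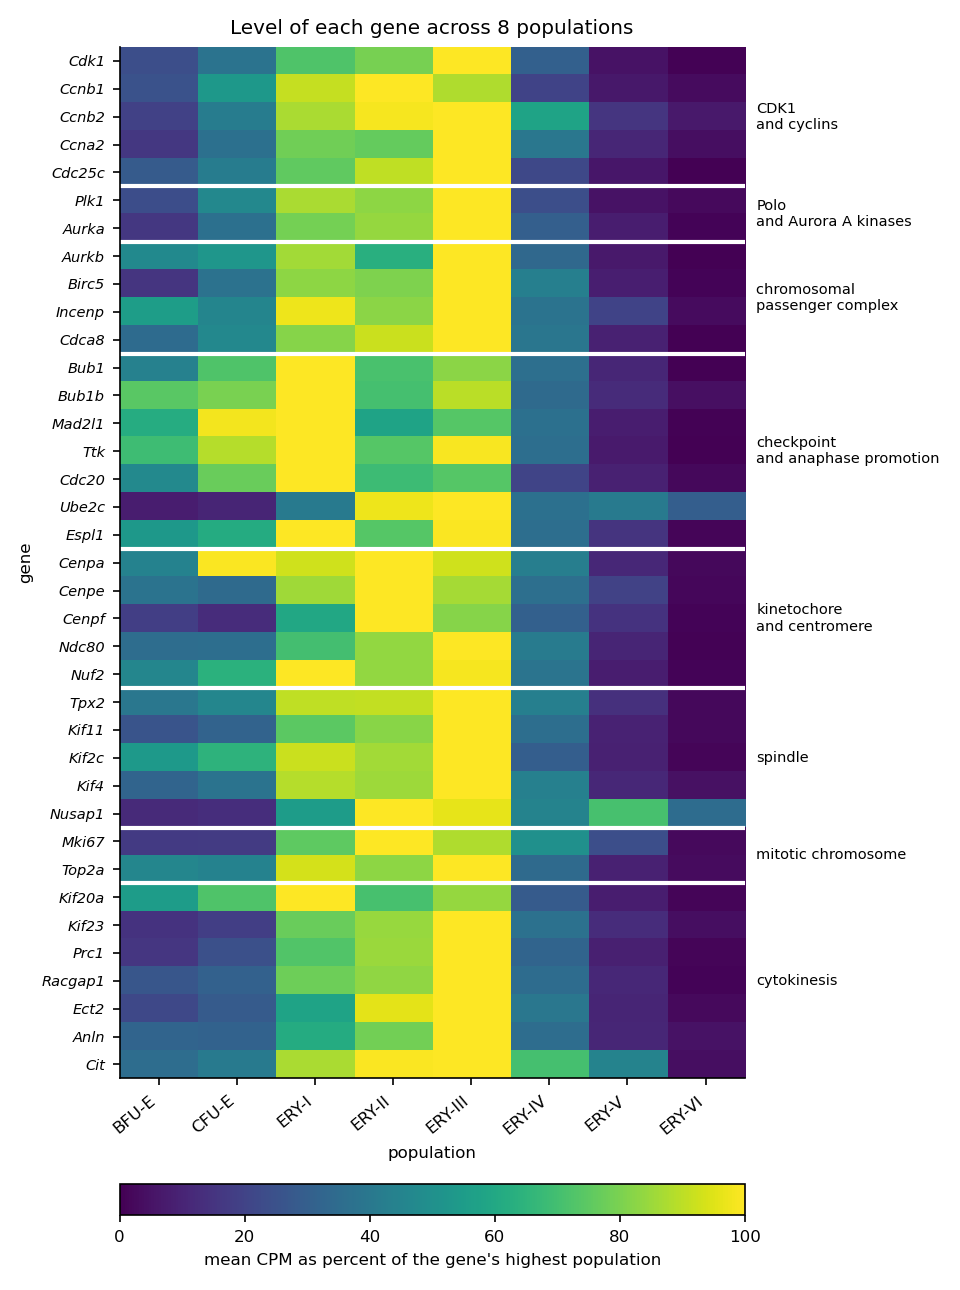
Mean level of each gene in the 8 populations as percent of that gene's highest population (colour), with genes in rows by role. Most rows are brightest from ERY-I to ERY-III and dark in ERY-V and ERY-VI, while Nusap1 keeps 71.0% and Ube2c 40.9% in ERY-V.

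CFU-E was compared with BFU-E first. Of the 37 genes 20 were higher in CFU-E and none lower, in edgeR's quasi-likelihood test with an adjusted p under 0.05 over all genes, where 37.3% of all genes tested were called. Changes are log2 fold changes ± SE after TMM scaling, which centres the bulk of genes. Their median was 0.50 over the 37 genes and -0.01 over all genes. The higher genes were 4 of the 5 CDK1 and cyclin genes, both Polo and Aurora A kinases, 5 of 7 checkpoint and anaphase genes and at most 3 in each other role. Birc5 (survivin, of the chromosomal passenger complex) had the largest difference (1.44 ± 0.36, adjusted p = 0.013), and Cenpf, a kinetochore protein, the lowest (-0.41 ± 0.49, adjusted p = 0.52). Within the Y-positive libraries alone 36 genes were higher, and Cenpf and Cenpe, the kinetochore motor, then had values of 0.07 and 0.39. Without BFU-E replicate 1 the count was 12, and with all groups in 1 fit it was 1 (Ccna2). With each triplicate summed to 1 library it was 0, with 10 genes at an unadjusted p under 0.05.

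Ccnb1, the cyclin B1 partner of CDK1, had 81.8, 83.7, 79.8, 116 and 99.2 CPM in CFU-E, against 41.3, 45.5 and 44.1 CPM in BFU-E (1.22 ± 0.18, adjusted p = 0.0012). Plk1, the Polo-like kinase of mitotic entry and spindle assembly, had 111, 115, 111, 131 and 149.6 CPM in CFU-E, against 53.3, 62.6 and 71.4 CPM in BFU-E (1.13 ± 0.18, adjusted p = 0.0017). Neither gene's groups overlapped. Mki67 was split by library set, with 3583, 3579.6, 3569, 911 and 1496 CPM in CFU-E and 2603, 2594 and 2582 CPM in BFU-E, and did not pass (0.13 ± 0.40, adjusted p = 0.82).

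ERY-I had more of nearly every gene than CFU-E. Of the 37 genes 35 were higher and none lower (46.4% of all genes were called, with a median of 1.39 for the 37 and 0.05 for all genes). Mad2l1 (0.43), a checkpoint protein at unattached kinetochores, and Cenpa (0.33), the centromeric histone, did not pass. The count was 34 within the Y-positive and 35 within the Xist-positive libraries, and 33 with library totals. The largest differences were those of Cenpf (2.67 ± 0.44, adjusted p = 4.5e-04), Mki67 (2.56), Nusap1 (2.54), Ube2c (2.47) and Kif23 (2.46 ± 0.20, adjusted p = 7.8e-06). Neutrophil markers were 13450 to 13866 CPM in ERY-I replicates 1 to 3, against 4.2 to 30.3 CPM in CFU-E, and their part in the result was not tested. They were 45.9, 20.1 and 0.4 CPM in ERY-I replicates 4, 6 and 7, and 1259.8 CPM in replicate 5.

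Kif23, the kinesin of the centralspindlin complex that builds the spindle midzone, had 248 to 332 (median 309) CPM in ERY-I, against 72.5, 82.0, 72.2, 46.6 and 87.8 CPM in CFU-E. Cdk1 had 206 to 376 (median 318) CPM in ERY-I, against 143, 129, 137, 170.4 and 186 CPM in CFU-E (1.35 ± 0.28, adjusted p = 0.002). Cdc20, the activator of the anaphase-promoting complex, had a narrower range of 119.5 to 132 (median 126) CPM in ERY-I, against 94.4, 91.7, 90.2, 104 and 108 CPM in CFU-E (0.77 ± 0.14, adjusted p = 0.001). In each of these genes every ERY-I library lay above every CFU-E library.

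Between ERY-II and ERY-I the answer depended on the scaling. With TMM 36 of the 37 genes were higher in ERY-II and none lower (45.3% of all genes called), the median being 1.38 for the 37 genes and -0.35 for all genes. With library totals 4 were higher and 4 lower, with medians of 0.10 and -1.67. Ube2c (2.58 ± 0.42, adjusted p = 5.5e-04, 1.26 with totals), Nusap1 (2.17 and 0.85), Cenpf (2.02 and 0.73) and Ect2 (2.02 and 0.72) were higher on both scales. Bub1, Cdc20, Mad2l1 and Kif20a were lower with totals (-0.79 to -0.48), although with TMM their values were 0.54 to 0.84. Ube2c, the ubiquitin-conjugating enzyme of the anaphase-promoting complex, had 977, 922, 1518 and 1021 CPM in ERY-II, against 296 to 724 (median 383) CPM in ERY-I. Cdc20 had 86.0, 93.3, 119.5 and 46.6 CPM in ERY-II, against 119.5 to 132 CPM in ERY-I, so by library totals no ERY-II library exceeded the ERY-I libraries. Within the Xist-positive libraries the TMM count was again 36.

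No gene of the 37 passed between ERY-III and ERY-II in edgeR's test, where 0.185% of all genes (14) were called and 1 of the 37 had an unadjusted p under 0.05. That gene was Aurkb, the kinase of the chromosomal passenger complex, with 199, 228, 145 and 133 CPM in ERY-III and 118, 129.6, 138 and 59.2 CPM in ERY-II (0.51 ± 0.15, adjusted p = 0.19). DESeq2 called Aurkb alone, and so did edgeR with the replicate number as a block, which pairs these libraries and called 10.3% of all genes. The other differences ran from -0.48 (Cenpf) to 0.29 (Espl1), and the groups of all 37 genes overlapped.

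Much of the list fell in ERY-IV. Of the 37 genes 24 were lower than in ERY-III and none higher (13.6% of all genes called). The median was -0.90 for the 37 genes and -0.07 for all genes, and with library totals it was -1.42 and -0.63 with 18 lower. The lower genes were 4 of 5 CDK1 and cyclin genes, both Polo and Aurora A kinases, all 4 of the chromosomal passenger complex, 6 of 7 cytokinesis genes, 3 of 7 checkpoint genes, 3 of 5 spindle genes, 1 of 5 kinetochore genes and Top2a. The count was 7 without ERY-III replicate 1, 13 without replicate 2, 14 without replicate 3, 9 without replicate 4 and 7 without ERY-IV replicate 4, all with no gene higher. With the replicate block, which pairs these libraries, it was 33, and with all groups of the stage series in 1 fit it was 1 (Cdc20). Calls and adjusted p of single genes in this step, also with a library left out, are from fits without the block. A gene that did not pass there may therefore pass when the libraries are paired.

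The 3 lowest values were those of Cdc25c, Plk1 and Ccnb1. Cdc25c, the phosphatase that activates CDK1, had 12.8, 19.0, 7.03 and 13.9 CPM in ERY-IV, against 76.4, 68.9, 49.0 and 47.3 CPM in ERY-III (-1.62 ± 0.24, adjusted p = 0.0028). Plk1 had 96.0, 79.6, 21.6 and 57.6 CPM in ERY-IV, against 317, 272, 218 and 252 CPM in ERY-III (-1.57 ± 0.29, adjusted p = 0.0062). Ccnb1 had 39.7, 36.6, 28.4 and 34.4 CPM in ERY-IV, against 174, 141, 126 and 169 CPM in ERY-III (-1.57 ± 0.25, adjusted p = 0.0037). All 4 ERY-IV libraries were below all 4 ERY-III libraries in these genes, and each call held without any single library. Cdk1 was more scattered, with 190.1, 199, 30.1 and 75.7 CPM in ERY-IV and 476, 445, 341 and 346 CPM in ERY-III (-1.28 ± 0.34, adjusted p = 0.032), and its call ended without any of the 4 ERY-III libraries or ERY-IV replicate 4 (adjusted p 0.052 to 0.087). Ccnb2, the other B-type cyclin of mitosis, was at -0.21 ± 0.17 and did not pass (adjusted p = 0.47).

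All 4 genes of the chromosomal passenger complex, which corrects faulty attachments and later guides cytokinesis, were lower in ERY-IV. Aurkb had 94.5, 96.0, 17.1 and 30.9 CPM in ERY-IV, against 199, 228, 145 and 133 CPM in ERY-III (-1.12 ± 0.32, adjusted p = 0.04), and its call ended without any library except ERY-IV replicates 1 and 2 (adjusted p 0.05 to 0.10). Its scaffold Incenp was at -0.90 ± 0.23, Birc5 at -0.71 ± 0.19 and Cdca8 at -0.81 ± 0.17. Aurka, the kinase of centrosomes and spindle poles, was lower by a like amount (-1.22 ± 0.24), and so was Ccna2, cyclin A2 of S phase and early mitosis (-0.85 ± 0.23).

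Of the checkpoint and anaphase genes, Bub1b (the BUBR1 inhibitor of the anaphase-promoting complex) had 164, 156, 51.5 and 67.5 CPM in ERY-IV, against 336, 339, 229 and 236 CPM in ERY-III (-0.90 ± 0.22, adjusted p = 0.022). Cdc20 had 29.4, 42.4, 11.3 and 20.2 CPM in ERY-IV, against 105, 103, 76.3 and 87.8 CPM in ERY-III (-1.36 ± 0.24, adjusted p = 0.0055). Both were lower in every ERY-IV library, although the call of Bub1b ended without ERY-III replicate 1 or 4 or ERY-IV replicate 4 (adjusted p 0.057 to 0.073). Espl1, which encodes separase, was lower too (-0.98 ± 0.23, adjusted p = 0.02), while Ttk (the MPS1 checkpoint kinase), Bub1, Mad2l1 and Ube2c, at -1.02 to -0.48, did not pass.

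Kinetochore genes had lower values in ERY-IV, but of the 5 only Nuf2 of the NDC80 complex passed in the unpaired fit (-0.90 ± 0.25, adjusted p = 0.036). Its partner Ndc80 was at -0.80 ± 0.27. Cenpe had 449.7, 542, 117 and 176 CPM in ERY-IV and 1053, 1139, 410.0 and 441 CPM in ERY-III, groups that overlapped (-0.74 ± 0.34, adjusted p = 0.18). Among spindle genes Kif2c, a kinesin that takes microtubules apart, had -1.22 ± 0.20 (adjusted p = 0.0037). Kif11, the kinesin that pushes spindle poles apart, had 662, 613, 145 and 268 CPM in ERY-IV, against 1381, 1447, 880.3 and 946 CPM in ERY-III (-1.0 ± 0.28, adjusted p = 0.04), and lost its call without any of these libraries except ERY-IV replicates 1 and 2 (adjusted p 0.052 to 0.11). Tpx2, which activates Aurora A at the spindle, passed at -0.72 ± 0.21, and the chromokinesin Kif4 (-0.71 ± 0.24) did not. Top2a, the topoisomerase that untangles sister chromatids, passed at -1.08 ± 0.28, while Mki67, with 10591, 13929, 2588 and 3392 CPM in ERY-IV and 16624, 24171, 7085 and 5528 CPM in ERY-III, did not (-0.29 ± 0.43, adjusted p = 0.71).

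Of the 7 cytokinesis genes 6 were lower, and Cit did not pass. Prc1, which bundles midzone microtubules, was at -1.20 ± 0.33, Kif20a, which carries the passenger complex to the midzone, at -1.06 ± 0.27, Racgap1 of centralspindlin at -1.02 ± 0.27 and Ect2, the RhoA activator it recruits, at -0.84 ± 0.20. Kif23 had 232, 205, 61.5 and 88.9 CPM in ERY-IV, against 458, 471, 326 and 314 CPM in ERY-III (-0.95 ± 0.24, adjusted p = 0.025). Anln, the scaffold of the contractile ring, had 303, 246, 70.6 and 113 CPM in ERY-IV, against 648, 631, 357 and 407 CPM in ERY-III (-1.01 ± 0.28, adjusted p = 0.035). Cit, citron kinase of the midbody, had 473, 538, 156 and 191 CPM in ERY-IV and 577, 717, 332 and 304 CPM in ERY-III, so its groups overlapped and its level did not pass (0.01 ± 0.26, adjusted p = 0.99). The call of Kif23 ended without ERY-III replicate 1 or 4 or ERY-IV replicate 4 (adjusted p 0.061 to 0.079), and that of Anln without any library except ERY-III replicate 3 and ERY-IV replicate 1 (0.055 to 0.10).

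**Figure D3:**
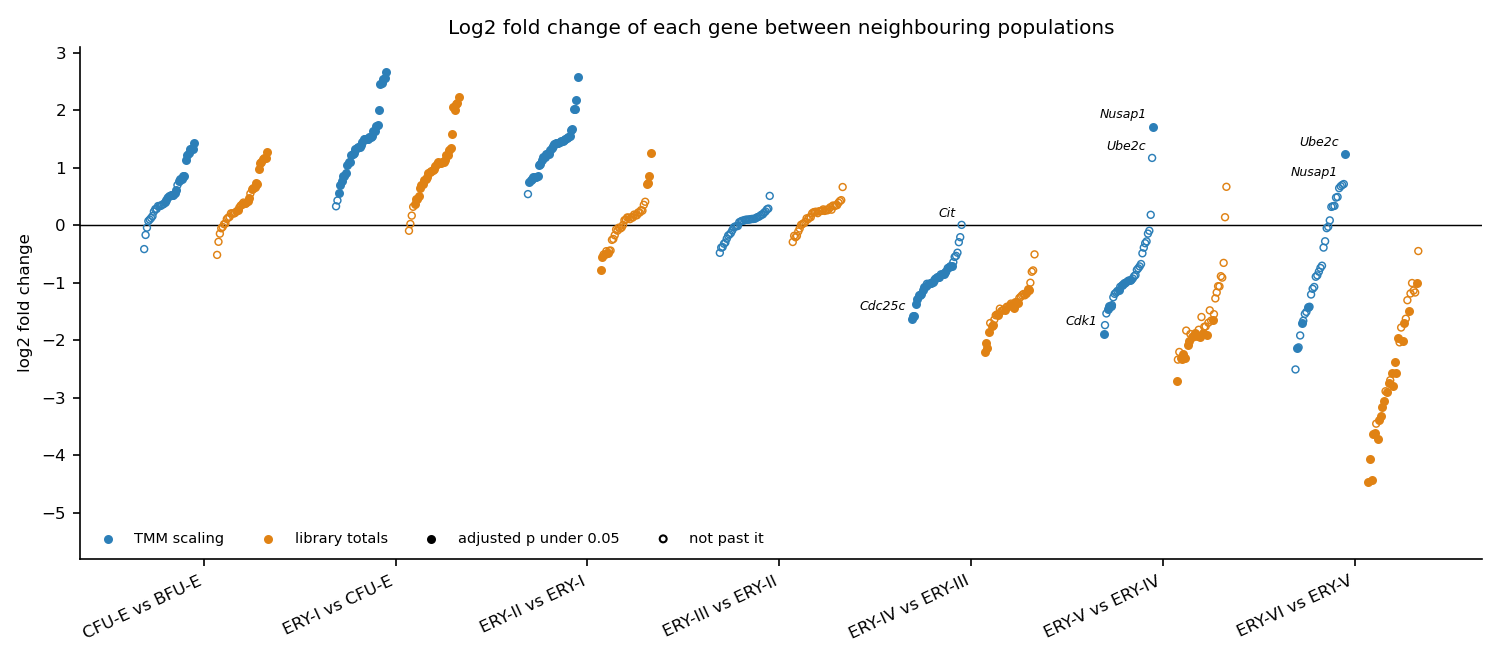
Log2 fold change of each gene between neighbouring populations, the later over the earlier, with TMM scaling (blue) and library totals (orange); filled points passed an adjusted p of 0.05, and genes with 3 or fewer counts in a population are not drawn. The 2 scales part in ERY-II against ERY-I and in ERY-VI against ERY-V, and with TMM Nusap1 and Ube2c lie above the other genes in the last 2 steps.

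In ERY-V 8 genes were lower than in ERY-IV and 1 was higher (8.83% of all genes called), with a median of -0.96 for the 37 genes and 0.06 for all genes. The 8 lower genes were Cdk1, Ccna2, Aurkb, Birc5, Nuf2, Kif11, Top2a and Ect2. With library totals 16 genes were lower and none higher, and within the Xist-positive libraries 3 were lower and 2 higher. All groups in 1 fit called 30. The count rested on single libraries: it was 1 to 5 without ERY-IV replicate 1, 2 or 4 or ERY-V replicate 2, and 16 to 18 without ERY-IV replicate 3 or ERY-V replicate 6 or 7. Y-positive ERY-V libraries had 2712 to 2755 CPM of neutrophil markers, ERY-V replicate 5 had 3389 CPM and ERY-IV at most 185.5 CPM, and their part in the result was not tested.

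Cdk1 had 1.01 to 59.0 (median 12.5) CPM in ERY-V, against 190.1, 199, 30.1 and 75.7 CPM in ERY-IV (-1.89 ± 0.50, adjusted p = 0.03). Aurkb had 2.02 to 23.3 (median 11.8) CPM in ERY-V, against 94.5, 96.0, 17.1 and 30.9 CPM in ERY-IV (-1.45 ± 0.39, adjusted p = 0.031). The groups overlapped in both genes, with ERY-IV replicate 3 the lowest of its group, and both calls ended without ERY-IV replicate 1, 2 or 4, ERY-V replicate 2 or 5 or, for Cdk1, ERY-V replicate 1 (adjusted p 0.058 to 0.12).

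Nusap1, which binds and bundles spindle microtubules around chromosomes, was the gene that moved up. It had 478 to 889 (median 737) CPM in ERY-V, against 519, 494, 319.7 and 399 CPM in ERY-IV (1.71 ± 0.35, adjusted p = 0.0096; 0.67 and not called with library totals), and without ERY-IV replicate 1 its adjusted p was 0.053. Within the Xist-positive libraries Nusap1 was at 2.04, adjusted p = 0.0057. Ube2c had 259 to 583 (median 508) CPM in ERY-V and 495, 379.8, 363 and 451 CPM in ERY-IV, and did not pass (1.17 ± 0.39, adjusted p = 0.074; 0.14 with library totals). Cit did not pass (0.18 ± 0.32, adjusted p = 0.8), with 31.3 to 335 (median 253) CPM in ERY-V and 473, 538, 156 and 191 CPM in ERY-IV.

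In ERY-VI 5 of the 36 genes tested were lower than in ERY-V and 1 was higher (7.83% of all genes called), with a median of -0.84 for these genes and -0.34 for all genes. With library totals 24 were lower and none higher, with medians of -2.72 and -2.22. All groups in 1 fit called 21. Within the Xist-positive libraries none of the 30 genes tested passed in edgeR, and 5 had an unadjusted p under 0.05. Bub1, a checkpoint kinase, and Cdca8 (borealin, of the passenger complex) were among the lower genes, with 0 and 3 counts over all ERY-VI libraries, and no fold is given for them. Cdc25c had no count and Ttk 1 count there. The remaining lower genes were Mki67 (-1.43 ± 0.35, adjusted p = 0.023), Cit (-1.70 ± 0.44, adjusted p = 0.028) and Cenpf (-2.13 ± 0.50, adjusted p = 0.017). Mki67 had 132, 351, 321 and 659 CPM in ERY-VI, against 547 to 5800.5 (median 4807) CPM in ERY-V, and its call ended without ERY-VI replicate 1 or 3 (adjusted p 0.072 and 0.055). Cit had 13.2, 6.62, 26.9 and 23.9 CPM in ERY-VI, against 31.3 to 335 (median 253) CPM in ERY-V, without overlap, and its call ended without ERY-V replicate 5 or ERY-VI replicate 1, 2 or 4 (adjusted p 0.052 to 0.061).

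Ube2c and Nusap1 kept the largest share of their own peak level in ERY-VI. Ube2c had 355, 271, 309 and 429 CPM in ERY-VI (1.24 ± 0.35, adjusted p = 0.04, against ERY-V), but on library totals it was at -0.45, and 9 of the 11 libraries each ended its call when left out (adjusted p 0.051 to 0.14). Nusap1 had 354, 319.8, 315 and 378 CPM in ERY-VI (0.72 ± 0.32, adjusted p = 0.16; called lower with library totals at -1.01). Together they made up on average 2.47% of the members' counts in BFU-E, 7.43% in the ERY-III libraries, 7.64% in those of ERY-IV, 22.3% in those of ERY-V and 49.0% in those of ERY-VI. The median of the 34 members other than these and Mki67 was, as a mean over libraries, 299.9 CPM for ERY-III, 114 CPM for ERY-IV, 29.8 CPM for ERY-V and 5.12 CPM for ERY-VI. Cdk1, in contrast, had 1.77, 6.62, 1.12 and 1.23 CPM and Plk1 0, 14.7, 0.560 and 10.4 CPM in ERY-VI.

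**Figure D4:**
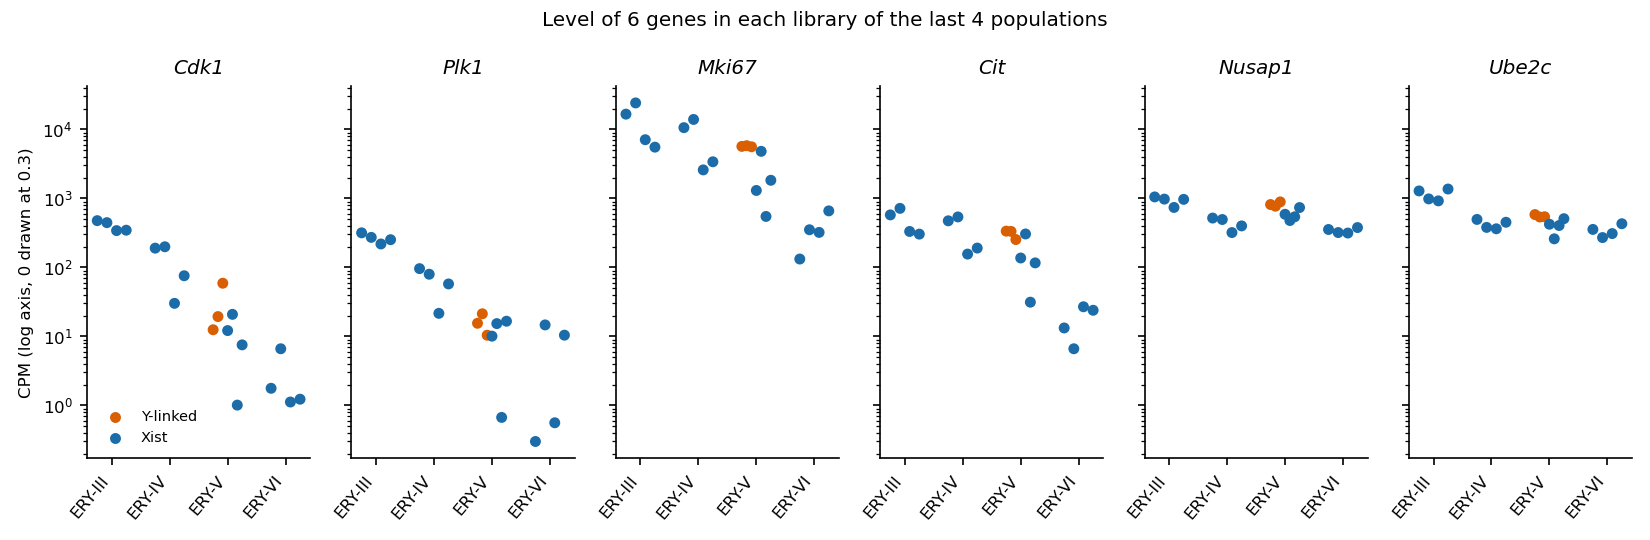
Level of 6 genes in every library of ERY-III to ERY-VI, in CPM on a log axis with 0 drawn at 0.3, coloured by library set. Cdk1 and Plk1 drop to a few CPM, Mki67 and Cit fall mainly at the end, and Nusap1 (315 to 378 CPM) and Ube2c (271 to 429 CPM) remain in ERY-VI.

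The WT libraries of the knockout series cover 4 broader steps. CFU-E had 36 of the 37 genes higher than BFU-E and none lower (70.5% of all genes called), Racgap1 being the one that did not pass. ERY-I-II had all 37 higher than CFU-E (81.8% called), with medians of 1.55 for the 37 genes and -0.03 for all genes and the largest values in Nusap1 (2.85 ± 0.03), Kif23 (2.59 ± 0.04) and Mki67 (2.46 ± 0.02). ERY-III-VI had all 37 higher than ERY-I-II with TMM (73.4% called, median 0.78, all genes -0.07), but with library totals 18 were higher and 9 lower. Ccnb1 and Cdc20 were among those that changed sign, at 0.32 and 0.15 with TMM and -0.39 and -0.56 with totals.

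ERY-V-VI in WT had 33 genes lower than ERY-III-VI and 3 higher (31.2% called), with medians of -0.50 for the 37 genes and -0.01 for all genes. The higher genes were Nusap1 (1.36 ± 0.04), Ube2c (1.34 ± 0.05) and Cit (0.33 ± 0.08). With library totals Nusap1 (0.20) and Ube2c (0.18) were still higher, Cit was lower (-0.82) and 35 genes in all were lower. Cdk1 had 88.8, 76.3 and 98.5 CPM in ERY-V-VI, against 345, 363 and 367 CPM in ERY-III-VI (-0.86 ± 0.09, adjusted p = 3.0e-06). Cenpa did not pass (-0.15 ± 0.12, adjusted p = 0.39).

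GS-KO libraries were then compared with WT in each gate. Glul had 96.1, 99.7 and 101 CPM in GS-KO BFU-E, against 121, 125 and 120.0 CPM in WT, and 34.7, 37.5 and 35.9 CPM in GS-KO CFU-E, against 89.7, 84.2 and 84.2 CPM in WT. It had 16.6, 12.8 and 15.1 CPM in GS-KO ERY-I-II, against 113, 104 and 113 CPM in WT, and 17.0, 18.1 and 22.5 CPM in GS-KO ERY-III-VI, against 152, 167 and 159 CPM in WT. In ERY-V-VI it had 22.3, 23.6 and 23.9 CPM in GS-KO, against 247, 268 and 246 CPM in WT. Every GS-KO library was below every WT library of its gate, by the least in BFU-E. All 9 neutrophil markers had counts in each group, and their sum was far higher in GS-KO: 7096 to 7173 CPM in GS-KO BFU-E against 28.6 to 38.5 CPM in WT, and 13456 to 13636 CPM in GS-KO ERY-V-VI against 612 to 662 CPM in WT. Summed monocyte and macrophage markers were 906 to 963 CPM in GS-KO ERY-V-VI, against 71.5 to 88.6 CPM in WT, and B lineage markers 52.9 to 65.5 CPM, against 2.5 to 6.1 CPM. The part of these cells in the results of any gate was not tested. Summed erythroid markers were higher in GS-KO in every gate except ERY-V-VI. They were 1435 to 1482 CPM in GS-KO BFU-E (WT 543 to 551 CPM) and 1328 to 1361 CPM in GS-KO CFU-E (WT 670 to 684 CPM). In GS-KO ERY-I-II they were 39005 to 39275 CPM, against 21726 to 21816 CPM in WT. The part of this difference in the results was not tested either.

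In BFU-E 13 genes were higher in GS-KO and none lower (24.0% of all genes called), with medians of 0.09 for the 37 genes and -0.01 for all genes. They were Ccna2, Incenp, Bub1b, Cenpe, Cenpf, Nuf2, Tpx2, Kif11, Nusap1, Mki67, Top2a, Kif23 and Prc1, and the same number was called with library totals. Kif23 had 82.7, 77.3 and 72.3 CPM in GS-KO, against 53.7, 52.9 and 48.0 CPM in WT (0.61 ± 0.07, adjusted p = 9.5e-10). Mki67 had 2867, 2837 and 2893 CPM in GS-KO, against 2464, 2528 and 2518 CPM in WT (0.21 ± 0.02, adjusted p = 7.5e-13). The groups did not overlap in either gene, and after Kif23 the next largest difference was that of Prc1 (0.34 ± 0.05, adjusted p = 7.5e-08). Cdk1 had 104, 119 and 97.9 CPM in GS-KO and 111, 98.8 and 108 CPM in WT, and did not pass (0.03 ± 0.06, adjusted p = 0.81). The call of Bub1b (0.11 ± 0.04) ended without GS-KO or WT replicate 2 (adjusted p 0.086 and 0.13). With all groups in 1 fit 5 genes were called. Only the WT triplicate agreed closely enough to be summed, which left 1 WT library, so no count is given for that fit.

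In CFU-E 15 genes were lower in GS-KO and 1 was higher (29.4% called), all by small amounts, with medians of -0.08 for the 37 genes and 0.00 for all genes. Plk1 had 111, 102 and 109.7 CPM in GS-KO, against 118, 122 and 125 CPM in WT (-0.18 ± 0.04, adjusted p = 0.0016). Bub1b had 294, 302 and 302 CPM in GS-KO, against 333, 335 and 321 CPM in WT (-0.14 ± 0.03, adjusted p = 1.6e-04). The groups did not overlap in these genes, and the lowest value was that of Cdc25c (-0.34 ± 0.10, adjusted p = 0.0087), whose adjusted p was 0.085 without WT replicate 1. Kif23 was the higher gene, with 83.1, 81.8 and 83.1 CPM in GS-KO and 70.8, 81.2 and 70.5 CPM in WT (0.16 ± 0.06, adjusted p = 0.03), and its call ended without GS-KO replicate 1 or 3 or WT replicate 1 or 3 (adjusted p 0.065 to 0.18). DESeq2 called 9 genes, all lower, and edgeR with all groups in 1 fit 16, all lower, so both left Kif23 out. Neutrophil markers were 4353 to 4434 CPM in GS-KO and 26.1 to 30.1 CPM in WT.

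In ERY-I-II the genes went both ways on the TMM scale. Of the 37 genes 13 were higher in GS-KO and 8 lower (40.3% called), with medians of 0.03 for the 37 genes and -0.01 for all genes. Of the cytokinesis genes 6 of 7 were higher and none lower, of which Kif23 and Anln were higher with library totals too, and of the checkpoint and anaphase genes 1 was higher (Ube2c) and 3 lower (Bub1, Mad2l1 and Cdc20). Of the CDK1 and cyclin genes Ccnb1 and Ccna2 were lower and none higher. With library totals the split was 6 higher and 20 lower, with medians of -0.09 and -0.13, and the higher genes were Ube2c, Cenpe, Cenpf, Mki67, Kif23 and Anln. Without the filter on low counts 10 were higher and 11 lower, and all groups in 1 fit called 11.

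Cenpf had the largest value (0.30 ± 0.02, adjusted p = 1.2e-21) and Mad2l1 the lowest (-0.28 ± 0.06, adjusted p = 9.4e-05). Mki67 had 14702, 14787 and 14753 CPM in GS-KO, against 13950.1, 13865 and 13732 CPM in WT (0.21 ± 0.01, adjusted p = 9.7e-27). Aurkb had 167, 159.8 and 149.6 CPM in GS-KO, against 199.5, 189.9 and 197 CPM in WT (-0.18 ± 0.05, adjusted p = 0.0014). Cdc20 had 138, 144 and 136 CPM in GS-KO, against 174, 165 and 161 CPM in WT (-0.13 ± 0.05, adjusted p = 0.031), with no overlap, although its call ended without GS-KO replicate 1 or 3 or WT replicate 1 or 2 (adjusted p 0.05 to 0.14). Anln had 372, 365 and 383 CPM in GS-KO, against 344, 349 and 352 CPM in WT (0.22 ± 0.03, adjusted p = 4.0e-08). Neutrophil markers were 6246 to 6334 CPM in GS-KO and 109.6 to 117 CPM in WT.

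In ERY-III-VI all 37 genes were lower in GS-KO (55.9% of all genes called), with medians of -0.35 for the 37 genes and 0.05 for all genes. With library totals 33 were lower and none higher, with medians of -0.19 and 0.21, and Cdc25c, Ttk, Kif2c and Kif20a did not pass. Single genes ran from -0.55 ± 0.05 for Aurkb to -0.18 ± 0.05 for Kif20a, so the spread among the 37 was narrow. Neutrophil markers were 9990 to 10069 CPM in GS-KO and 255 to 259 CPM in WT, and globin took 5.70 to 5.94% of counts in GS-KO and 4.71 to 4.77% in WT.

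Cdk1 had 301, 316 and 302 CPM in GS-KO, against 345, 363 and 367 CPM in WT (-0.39 ± 0.04, adjusted p = 3.3e-13). Aurkb had 153, 152 and 159.6 CPM in GS-KO, against 212, 192 and 208 CPM in WT (-0.55 ± 0.05, adjusted p = 3.2e-14). Mki67 had 17969, 17969 and 18089 CPM in GS-KO, against 22613, 22587 and 22612 CPM in WT (-0.49 ± 0.01, adjusted p = 8.9e-34). Every GS-KO library was below every WT library in these genes. Kif11 likewise had 1006, 1009.8 and 989.6 CPM in GS-KO, against 1203, 1157 and 1173 CPM in WT (-0.39 ± 0.03, adjusted p = 5.9e-19). Ccna2 had -0.51 ± 0.03, Birc5 -0.45 ± 0.04 and Ccnb2 -0.40 ± 0.04. Kif20a lost its call without GS-KO replicate 2 (adjusted p = 0.052).

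ERY-V-VI held the largest differences, and their direction turned with the scaling. With TMM 10 of the 37 genes were lower in GS-KO and 1 higher (42.9% called), with medians of -0.03 for the 37 genes and 0.15 for all genes. With library totals 35 were higher and 2 lower, with medians of 1.27 and 1.44, and all groups in 1 fit with TMM called 22. Globin took 7.69 to 7.82% of counts in GS-KO, against 19.6 to 19.8% in WT, and the summed erythroid markers were 86941 to 88182 CPM in GS-KO, against 195028 to 197587 CPM in WT. The summed level of the 37 genes was 30118, 29748 and 29317 CPM in GS-KO, against 16785, 16898 and 16718 CPM in WT.

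Nusap1 and Ube2c were lower in GS-KO on both scales. Nusap1 had 689, 698 and 693 CPM in GS-KO, against 865, 898 and 911 CPM in WT (-1.66 ± 0.04, adjusted p = 6.6e-15; -0.36 with library totals). Ube2c had 598, 629.7 and 569.7 CPM in GS-KO, against 719.9, 793 and 778 CPM in WT (-1.64 ± 0.05, adjusted p = 1.3e-13; -0.35 with library totals). Their share of the members' counts was 4.27 to 4.46% in GS-KO, against 9.44 to 10.1% in WT. In GS-KO ERY-III-VI the same genes had 692, 686 and 711 CPM for Nusap1 and 607, 611 and 599.6 CPM for Ube2c. The WT ERY-V-VI libraries also enter the WT step described above.

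For Cdk1 and Plk1 the library-total differences lay near the median of all genes on that scale (1.44). Cdk1 had 230.3, 261 and 258 CPM in GS-KO, against 88.8, 76.3 and 98.5 CPM in WT (0.21 ± 0.10, adjusted p = 0.12; 1.5 with library totals). Plk1 had 129, 158 and 145 CPM in GS-KO, against 39.0, 43.4 and 52.0 CPM in WT (0.39 ± 0.14, adjusted p = 0.032; 1.68 with library totals). It was the gene called higher with TMM, and its call ended without WT replicate 1 or 2 or GS-KO replicate 2 or 3 (adjusted p 0.052 to 0.18). Cit (-0.78 ± 0.08 with TMM, 0.51 with totals), Mki67 (-0.60 ± 0.02 and 0.70) and Anln (-0.21 ± 0.07 and 1.09) changed sign with the scale, and the call of Anln with TMM ended without WT replicate 1 or GS-KO replicate 1 or 3 (adjusted p 0.07 to 0.11). Mki67 had 15927, 15427 and 15311 CPM in GS-KO, against 9686, 9627 and 9471 CPM in WT. The other genes lower with TMM were Ccnb2, Birc5, Incenp, Espl1 and Kif4, at -0.45 to -0.29, and all of them were higher with library totals (0.85 to 1.0).

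**Figure D5:**
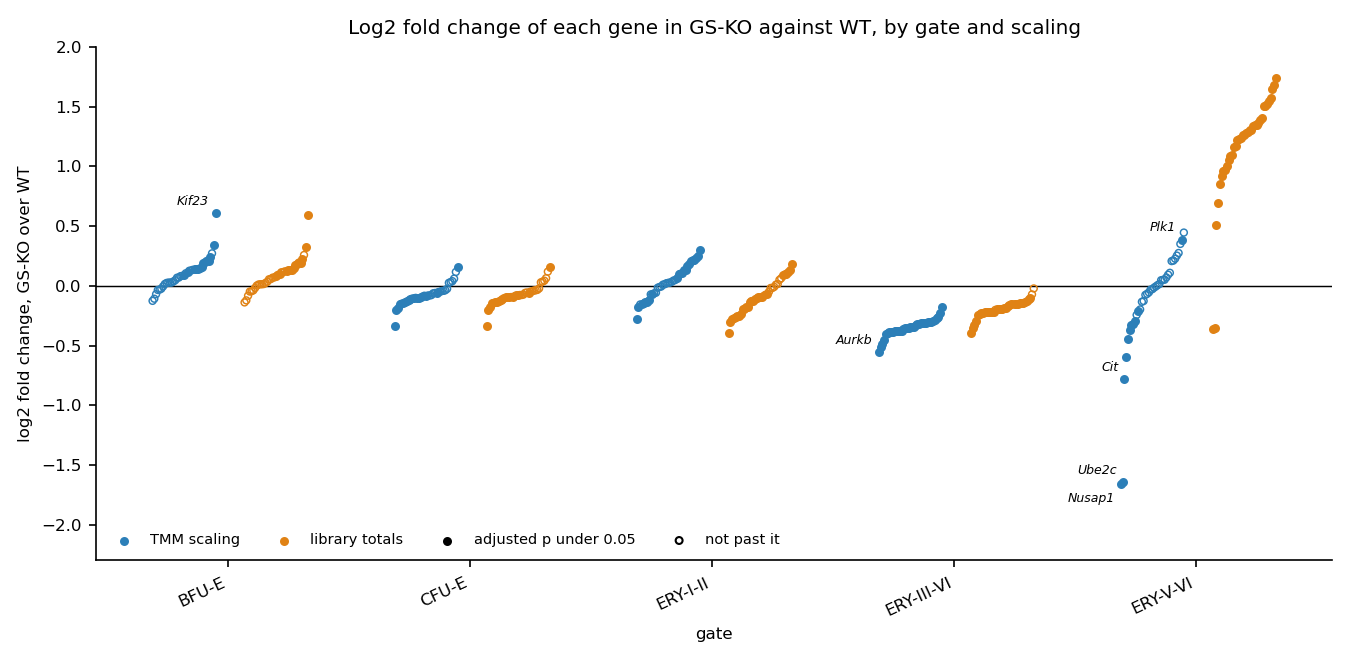
Log2 fold change of each of the 37 genes in GS-KO over WT in the 5 gates, with TMM scaling (blue) and library totals (orange); filled points passed an adjusted p of 0.05. All genes lie below 0 in ERY-III-VI, and in ERY-V-VI the library totals move all genes except Nusap1 and Ube2c above 0.

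The effect of GS-KO differed between gates for each of the 37 genes in the interaction test over all 30 libraries (4 degrees of freedom), which called 61.2% of all genes (7379 of 12051). With library totals and with DESeq2, on the same libraries, it again called all 37. These libraries are Y-positive triplicates that may not be separate mice, so the p-values may rest on technical variation. Neutrophil and erythroid markers also differed between genotypes, and their part in this result was not tested.

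Other genes of the pathway were counted from lists of the regulators and partners of these proteins. In ERY-I against CFU-E, where 46.4% of all genes were called, 18 of 19 condensin and cohesin genes, 25 of 29 spindle and centrosome genes and 23 of 34 kinetochore and centromere genes were higher, with 0, 1 and 0 lower. With library totals the higher ones were 13, 22 and 12, and the lower ones 0, 3 and 1. Of 17 DREAM, B-MYB and FOXM1 regulators 11 were higher and 1 lower, led by the activator E2f2 at 3.99 ± 0.46. Of 18 anaphase-promoting complex genes 6 were higher and 4 lower, with Fzr1, its late activator CDH1, at 2.38 ± 0.32, and with library totals 3 were higher and 9 lower. Of 10 brakes and activators of CDK1 5 were higher and 1 lower, with the phosphatase Cdc25b at 6.74 ± 0.48.

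In ERY-IV against ERY-III, where 13.6% of all genes were called, 16 of 28 spindle and centrosome genes were lower. The counts of 6 of 34 kinetochore genes, 3 of 19 condensin and cohesin genes and 2 of 10 CDK1 brakes and activators were near that share of all genes. Of 18 anaphase-promoting complex genes 1 was higher, securin (Pttg1, 1.66 ± 0.40), and 1 was lower. Of 16 DREAM, B-MYB and FOXM1 regulators tested 1 was higher, the E2F partner Tfdp2 (1.34 ± 0.22), and 1 was lower. In GS-KO ERY-III-VI against WT, where 55.9% of all genes were called, 19 of 19 condensin and cohesin genes, 29 of 34 kinetochore genes, 25 of 29 spindle genes and 11 of 16 DREAM, B-MYB and FOXM1 regulators were lower, and 0, 0, 1 and 1 higher. With library totals the lower ones were 15, 14, 19 and 11. The spindle gene that was higher was Cep55, a midbody protein of abscission (4.11 ± 0.37). In GS-KO ERY-V-VI the lists turned with the scale, with 10 of 34 kinetochore genes lower and none higher with TMM, and 30 higher and none lower with library totals.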

How the data were processed

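RNA-seq libraries of flow-enriched mouse bone marrow erythroid cells were made from total RNA with a low-input stranded kit, per the labels' protocols. The deposited values are raw counts per gene symbol that the authors made with STAR 2.5.2b and HTSeq on mm10, per the submitters' processing notes. For the annotation, the strand setting and reads shared by near-identical copies, the settings were not given in the sources used here. Samples were grouped by their labels. From the counts, genes were filtered with filterByExpr (minimum count 10, minimum total 15), scaled with TMM and tested with edgeR 4.0.16 (R 4.3.3) by the quasi-likelihood F test, 2 groups to a fit, with Benjamini-Hochberg adjustment over all genes tested and a threshold of 0.05. The SE of a fold change is its size divided by the square root of F. DESeq2 1.42.0, DESeq2 size factors, library totals, other filters, left-out libraries and library sets were alternatives. The summing of triplicates and the fits within a library set were partly chosen after seeing the data. The fit was tested on simulated data. Precision is limited by the 3 to 7 libraries a group.

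The 37 genes and all lists were chosen with earlier results of these data known. All 37 may be named. For 12 of them (Cdk1, Ccnb1, Plk1, Aurkb, Bub1b, Cdc20, Cenpe, Kif11, Mki67, Kif23, Anln, Cit) values are followed in every sample, and others are named for the largest or smallest change or for a call against the majority. Other lists are given as counts. Replicate numbers were checked as pairs by correlation of the deviations of same-numbered libraries from their group means. They paired libraries in ERY-III with ERY-II (0.604 to 0.781) and ERY-IV with ERY-III (0.342 to 0.625). In ERY-I with CFU-E (0.307 to 0.436), replicates 1 to 3 are Y-positive and 4 and 5 Xist-positive in both groups. Library set alone can give such values, so they do not show pairing. Between ERY-II and ERY-I, and in both steps with ERY-V, replicates 1 to 3 set Y-positive beside Xist-positive libraries. The check cannot tell there whether libraries are paired under other numbers. No pairing was seen in the remaining comparisons. Promoters came from the RefSeq table of GRCm38.p6.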

Additional observations from a re-analysis of the deposited data

Results flagged for a closer look

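Single libraries stood apart from their group in 7 of 91 tests, and chance gives about 1 in 20. The tests included the 12 genes followed in every sample, and all 7 flags were in these genes. Cdk1 was 59.0 CPM in ERY-V replicate 3, against 1.0 to 20.9 CPM in the other libraries, and 6.6 CPM in ERY-VI replicate 2, against 1.1 to 1.8 CPM. In ERY-I replicate 5, Aurkb was 181.9 CPM (the others 141.9 to 153.6 CPM) and Anln 384.4 CPM (the others 281.5 to 318.6 CPM). Aurkb was 1.8 CPM in ERY-VI replicate 1 and 0 in the other ERY-VI libraries, and Cenpe was 48.4 CPM in ERY-VI replicate 4, against 0.5 to 6.2 CPM. Anln was 234.5 CPM in ERY-II replicate 4, against 444.8 to 476.4 CPM.

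The GS-KO effect differed between the 5 gates by edgeR's interaction test in all 12 of these genes. The p-values may rest on technical variation, since the triplicates may not be separate mice. The adjusted p was 3.4e-10 for Cdk1, 2.9e-07 for Ccnb1, 9.7e-10 for Plk1, 4.7e-11 for Aurkb, 2.4e-12 for Bub1b and 1.3e-06 for Cdc20. It was 4.2e-18 for Cenpe, 5.1e-18 for Kif11, 6.3e-39 for Mki67, 6.1e-16 for Kif23, 4.5e-15 for Anln and 1.1e-18 for Cit. In ERY-V-VI, Mki67, Anln and Cit were called lower with TMM and higher with library totals.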

How the results depend on the processing

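Of 3612 values of single genes under an alternative, 3344 kept direction and call, 72 gained and 172 lost the call and 24 reversed, and the cause was not tested. Library totals gave 8 called genes in ERY-II against ERY-I, 16 in ERY-V against ERY-IV, 24 in ERY-VI against ERY-V, 26 in GS-KO ERY-I-II and 37 in GS-KO ERY-V-VI. They reversed Aurkb (-0.450), Bub1b (-0.508), Cdc20 (-0.548), Mad2l1 (-0.786) and Plk1 (-0.074) in ERY-II against ERY-I. In ERY-VI against ERY-V, Kif11 (-2.010) and Ube2c (-0.448) reversed. In GS-KO ERY-I-II, Bub1b (-0.097) and Kif11 (-0.071) reversed, and in GS-KO ERY-V-VI, Anln (1.088), Bub1b (1.218), Cenpe (1.289), Cit (0.512) and Mki67 (0.697). Between WT ERY-III-VI and ERY-I-II, Bub1b (-0.142), Ccnb1 (-0.394), Cdc20 (-0.563), Cdk1 (-0.006) and Plk1 (-0.374) reversed, and Cit (-0.820) between WT ERY-V-VI and ERY-III-VI.

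In CFU-E against BFU-E, the fit with the replicate block called 36 genes and that of only Y-positive libraries 36, with Cenpe at 0.396 and 0.394 and Cenpf at 0.073 and 0.074. The numbers do not pair libraries there (correlations -0.038 to 0.026), and CFU-E replicates 4 and 5 carry no weight in that fit. All groups in 1 fit called 1 gene (Ccna2), and summed triplicates 0. With the block as a pairing, ERY-III against ERY-II had 1 call and ERY-IV against ERY-III 33. ERY-V against ERY-IV had 17 with the block. There equal numbers set Y-positive ERY-V replicates 1 to 3 beside Xist-positive ERY-IV libraries (correlations of all pairs -0.28 to 0.325), so these blocks join unlike sets. The block moved no other count by over 1.5 times. DESeq2 gave 1 in ERY-III against ERY-II, 14 in ERY-V against ERY-IV and 9 in GS-KO CFU-E. All groups in 1 fit gave 1 in ERY-IV against ERY-III, 30 in ERY-V against ERY-IV, 21 in ERY-VI against ERY-V, 5 in GS-KO BFU-E, 11 in GS-KO ERY-I-II and 22 in GS-KO ERY-V-VI. In ERY-V against ERY-IV the count was 14 without globin and the 10 most abundant genes, 22 without the filter on low counts, 5 with summed triplicates and 5 with only Xist-positive libraries. In ERY-VI against ERY-V it was 1 (Cdca8) and 0 in the last pair of settings. In GS-KO against WT in BFU-E and CFU-E, only the WT triplicates had a chi-square per degree of freedom under 2 in every pair. Summing them left 1 WT library beside 3 GS-KO libraries, and no counts are given for these fits. Summed triplicates could not be fitted where 1 library a group was left. No filter on low counts gave 21 in GS-KO ERY-I-II.

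Leaving out 1 library at a time gave 12 to 25 called genes in CFU-E against BFU-E, 35 in each fit of ERY-I against CFU-E, 36 to 37 in ERY-II against ERY-I and 0 in ERY-III against ERY-II. It gave 7 to 25 in ERY-IV against ERY-III, 1 to 18 in ERY-V against ERY-IV and 4 to 6 in ERY-VI against ERY-V. In GS-KO against WT it gave 12 to 13 in BFU-E, 11 to 15 in CFU-E, 17 to 20 in ERY-I-II, 36 to 37 in ERY-III-VI and 9 to 12 in ERY-V-VI. The WT steps gave 35 to 36, 37, 36 to 37 and 29 to 36, and the interaction 37 each time. Depth limits statements on ERY-VI, where 27 to 32 of the 37 genes had counts in a library.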
